A study of Drosophila melanogaster with 4 samples.

Results

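The regions described are 5 windows of the Drosophila melanogaster genome set to cover 6 pair-rule genes other than hairy, namely odd skipped (odd), sloppy paired 1 and 2 (slp1 and slp2, which share a window), paired (prd), odd paired (opa) and runt (run). The peaks were chosen by position alone: a Hairy peak belongs to a window if its midpoint lies inside it. They number 47 of the 8958 peaks in the list, or 0.525%, in 350 kb of sequence. The data come from chromatin immunoprecipitation and sequencing (ChIP-seq) of whole embryos with a rabbit polyclonal serum against the Hairy protein, with 2 Hairy ChIP libraries and 2 input libraries. Both groups share 1 strain, Y cn bw sp, with no treatment named. Its genotype is given as y[1] with oc[R3.2], then Gr22b[1], Gr22d[1] and cn[1] with CG33964[R4.2], bw[1] and sp[1], then LysC[1] and lab[R4.2] with MstProx[1], GstD5[1] and Rh6[1]. The embryos are labelled 0 to 8 h old, whereas the collection protocol speaks of a laying of 8 to 16 h, so their age is uncertain, and their sex is given as unknown. The single list stands for the whole series and gives no value for any library. No difference between windows could therefore be set against the spread between libraries, no test was made, and every comparison below is a description.

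Pair-rule genes divide the early fly embryo into repeated units and are mostly expressed in regular stripes along its length. They encode transcription factors that regulate one another and then the segment-polarity genes. Hairy is a basic helix-loop-helix repressor that recruits the corepressor Groucho, and it is known from genetics to restrict the stripes of other pair-rule genes, runt among them. Several pair-rule genes are used again later in the embryo, in particular in the nervous system. The windows are placed by coordinates on Release 5 of the genome and named for the genes they were set around. The position of those genes inside the windows was not checked, the windows can hold other genes too, and no peak could be assigned to a start site, an exon or an intron, because the gene table at hand is for Release 6. From the order of protein-coding genes in that table, odd lies between sob, another zinc finger gene of the odd-skipped family, and Ugt36A1. The genes slp1 and slp2 are direct neighbours, flanked by CG3407 and TTLL4B. The neighbours of prd are CG14947 and Pex19, those of opa are CG14659 and laf, and those of run are hydra and CG1324.

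Hairy peaks were found in all 5 windows, as they were in most windows of equal size on the same arms. On 2L, 27 of 250 windows of 90 kb and 72 of 376 of 60 kb held none. On 3R it was 78 of 460, and on the X 59 of 275. The opa window held the most peaks of the 5. It had 14 peaks in 60 kb, against 8 in the 60 kb prd window and 6 in the 60 kb slp window, while the 90 kb odd window held 10 and the 80 kb run window 9. Per 10 kb this came to 2.33 peaks for opa, 1.33 for prd, 1.13 for run, 1.11 for odd and 1.00 for slp. Up to the last peak of each arm, the mean density was 0.71 peaks per 10 kb on 3R, 0.63 on 2L and 0.62 on the X, so each window was denser than its arm as a whole. Peaks covered 11.7% of the opa window, 7.17% of the prd window, 7.06% of the odd window, 6.37% of the slp window and 4.89% of the run window. The order by covered sequence thus differed from the order by number, with run last instead of slp.

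**Figure D1:**
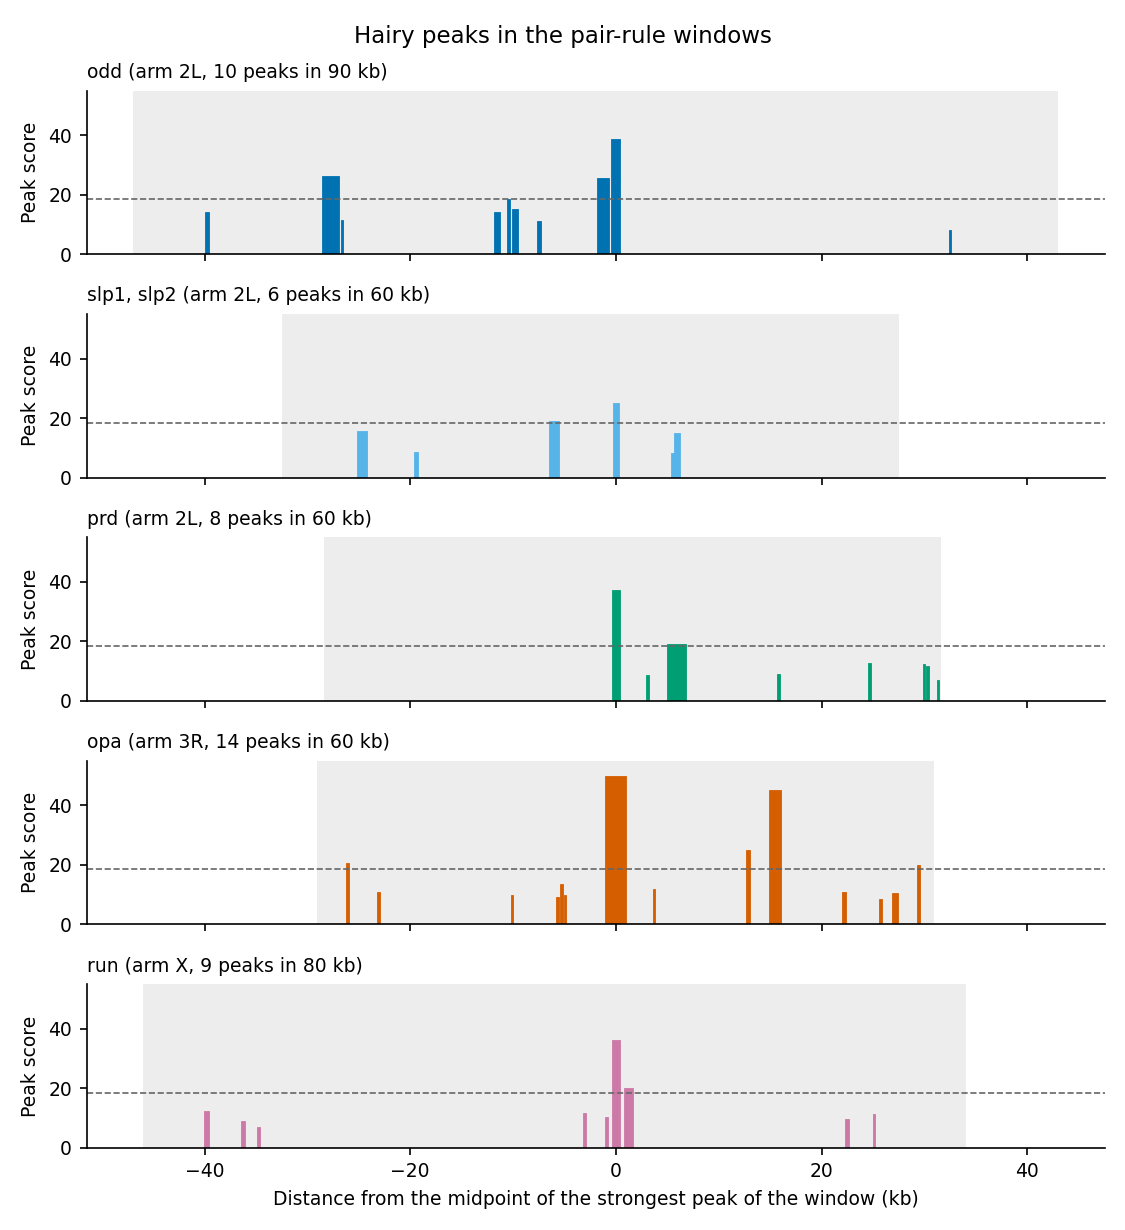
Peaks of the 5 windows, placed by distance in kb from the midpoint of the strongest peak of each window (x axis) with the deposited score as height (y axis). Bar widths are the peak widths with a thin outline, grey shading marks the window, and the dashed line is the upper quartile of all scores (18.47). The opa window has 2 peaks above 45, whereas the highest scores of odd, prd and run lie between 36.28 and 38.81 and that of slp is 25.05.

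The strongest peak of each window ranked between 261 and 1138 of the 8958 peaks in the list. The score is the value the authors deposited for each peak; its scale is not named, so it serves only to set peaks of the list, which range from 5.93 to 676.3, against each other. The highest score was 49.87 at opa, 38.81 at odd, 37.28 at prd, 36.28 at run and 25.05 at slp. None of the 47 peaks reached 74.97, the score that bounds the strongest 1% of the list. In the list, the strongest peak of opa ranked 261, that of odd 417, that of prd 452, that of run 469 and that of slp 1138. On their arms these 5 peaks ranked 34 of 1971 (opa, 3R), 36, 37 and 122 of 1450 (odd, prd and slp, 2L) and 24 of 1379 (run, X). Of the 47 peaks, 15 (31.9%, 95% Clopper-Pearson interval 19.1 to 47.1) scored at or above 18.47, the upper quartile of the list. The background is 20.8% of the 8099 peaks on the chromosome arms, which lies inside that interval. By arm it was 20.9% on 2L and 22.6% on 3R, also inside, and 16.0% on the X, below it. The interval covers counting error alone and treats neighbouring peaks as independent. The opa window held 5 such peaks, odd 4, and slp, prd and run 2 each. Scores above 30 occurred in 5 of the 47 peaks, beside a background of 421 of the 8099 peaks on the arms (5.2%). The median was no higher than elsewhere: it was 12.3 over the 47 peaks and 12.7 over the peaks of the arms.

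The odd window, named for the gene of a zinc finger transcription factor, lay on 2L at 3560001 to 3650000. Its strongest peak, at 3606528 to 3607401, scored 38.81 and was 874 bp wide. Only 252 bp to its left, a peak at 3605123 to 3606275 scored 25.43 over 1153 bp, and the pair together extended over 2279 bp. The widest peak of the window was at 3578341 to 3580049, 27.8 kb to the left of the strongest, with 1709 bp and a score of 26.24. A group of 4 peaks lay between these places, from 3595136 to 3599714, of which the peak at 3596355 to 3596683 scored highest, at 18.61 over 329 bp. To the right of the strongest peak, 31.9 kb held no peak, and the only one beyond was narrow and weak (3639336 to 3639552, 217 bp, score 8.10). Apart from it, all other peaks of the window lay to the left of the strongest. The median score was 14.7, against 12.9 on 2L.

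The slp window, on 2L at 3800001 to 3860000, is named for the forkhead transcription factor genes slp1 and slp2, a pair of related genes with largely overlapping roles. It had the fewest peaks and the lowest maximum of the 5 windows, yet the highest median score, 15.3 over 6 peaks. The strongest peak, from 3832151 to 3832739, scored 25.05 over 589 bp. The second lay 6.02 kb to the left, at 3825936 to 3826921, and scored 18.96 over 986 bp. The widest, at 3807222 to 3808279, had 1058 bp but a score of only 15.49. A further 2 peaks were 50 bp apart, at 3837842 to 3838062 (score 8.26) and 3838113 to 3838671 (15.09), and the remaining peak scored 8.56. The right-hand 21.3 kb of the window had no peak.

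The prd window, on 2L at 12050001 to 12110000, is named for the gene of a transcription factor with a paired domain and a homeodomain. Here 2 peaks stood out from the other 6. The peak at 12078026 to 12078793 scored 37.28 over 768 bp. The peak at 12083337 to 12085215, 5.87 kb to the right, was the widest of the window at 1879 bp and scored 19.14. The next highest score was 12.87, at 12102886 to 12103226, and the other 5 peaks scored 7.0 to 12.27 and were 201 to 310 bp wide. The first 28.0 kb of the window held no peak, and the peaks on its right edge continued past it. The last peak inside (12109636 to 12109846, score 7.0) and the first outside (12109901 to 12110225, score 12.64) were 54 bp apart.

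The opa window, on 3R at 650001 to 710000, is named for the gene of a zinc finger transcription factor of the Zic family, which among pair-rule genes is unusual in being expressed in a broad domain rather than in stripes. Its strongest peak, at 678015 to 680065, scored 49.87 and was also the widest of all 47, at 2051 bp. A second strong peak lay 15.5 kb to the right, at 693918 to 695070, with a score of 45.13 over 1153 bp, and 1875 bp to its left a narrower one at 691673 to 692042 (370 bp) scored 24.87. Near the edges, the peak at 652760 to 653087 scored 20.56 over 328 bp and the peak at 708334 to 708609 scored 20.04 over 276 bp. The other 9 peaks scored 8.49 to 13.49, among them 3 that followed each other within 957 bp from 673222 to 674178. The longest distance without a peak was 12.8 kb, and the peaks extended over 55.9 of the 60 kb. The median score of 11.4 was below the 13.0 of arm 3R, so many peaks of this window were weak.

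The run window, on the X at 20520001 to 20600000, is named for the gene of a Runt-domain transcription factor. Its peaks fell into 3 groups. In the middle, 3 peaks within 2715 bp comprised the strongest, at 20565567 to 20566389 (score 36.28, 823 bp), the second, at 20566796 to 20567629 (20.04, 834 bp, the widest of the window), and a weak one (10.46), with another weak peak (11.72) 1803 bp further left. On the left, 3 peaks began with 20525957 to 20526395 (score 12.37) and were separated from the middle by 31.5 kb. On the right, 2 peaks scored 9.56 and 11.40. Only run had no peak of 1 kb or more, although its middle group becomes such a region when peaks within 500 bp are joined. To the right of the last peak, the next 310.6 kb of the X had none, the third longest of the 1378 distances between neighbouring peaks on that chromosome.

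Against windows of equal size on the same arm, the opa window was among the highest in each measure and the others stood above the middle. Windows were laid end to end from the first base of each arm, leaving out those that touch a pair-rule window. On 3R, 9 of 460 windows (1.96%) held at least 14 peaks, 15 (3.26%) were covered at least as much and 21 (4.57%) had a highest score of at least 49.87. In all 3 measures together, 2 of the 460 (0.435%) reached the opa window, a share that cannot exceed the smallest of the single ones. At least 5 peaks above the upper quartile were held by 13 (2.83%), and 4 (0.87%) had a second highest score of 45.13 or more. The median 3R window had 4 peaks, a cover of 2.68% and a highest score of 18.1. These shares place the window on its arm and are not p-values.

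For odd, 50 of 250 windows of 2L (20.0%) had at least as many peaks, 27 (10.8%) at least the cover and 29 (11.6%) at least the highest score. Its 4 peaks above the upper quartile were matched or exceeded in 19 windows (7.6%). For slp the shares were 24.5% (92 of 376) by number, 13.8% by cover and 22.1% by highest score. For prd they were 16.0% (60 of 376), 10.9% and 8.24%. For run on the X they were 22.2% (61 of 275) by number, also 22.2% by cover, and 8.0% by highest score. Among these 3 measures, the highest score was the rarest on the arm for prd and run, and the covered share for odd and slp. Windows that reached all 3 measures together made up 2.8% for odd, 9.57% for slp, 2.66% for prd and 2.18% for run. Such a joint share can never exceed the smallest of the 3 single shares, so it is not comparable with them. A second highest score at least as high was found in 9.6% of windows for odd, 18.6% each for slp and prd, and 13.1% for run, and as many peaks above the upper quartile in 20.5% each for slp and prd and 18.5% for run.

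**Figure D2:**
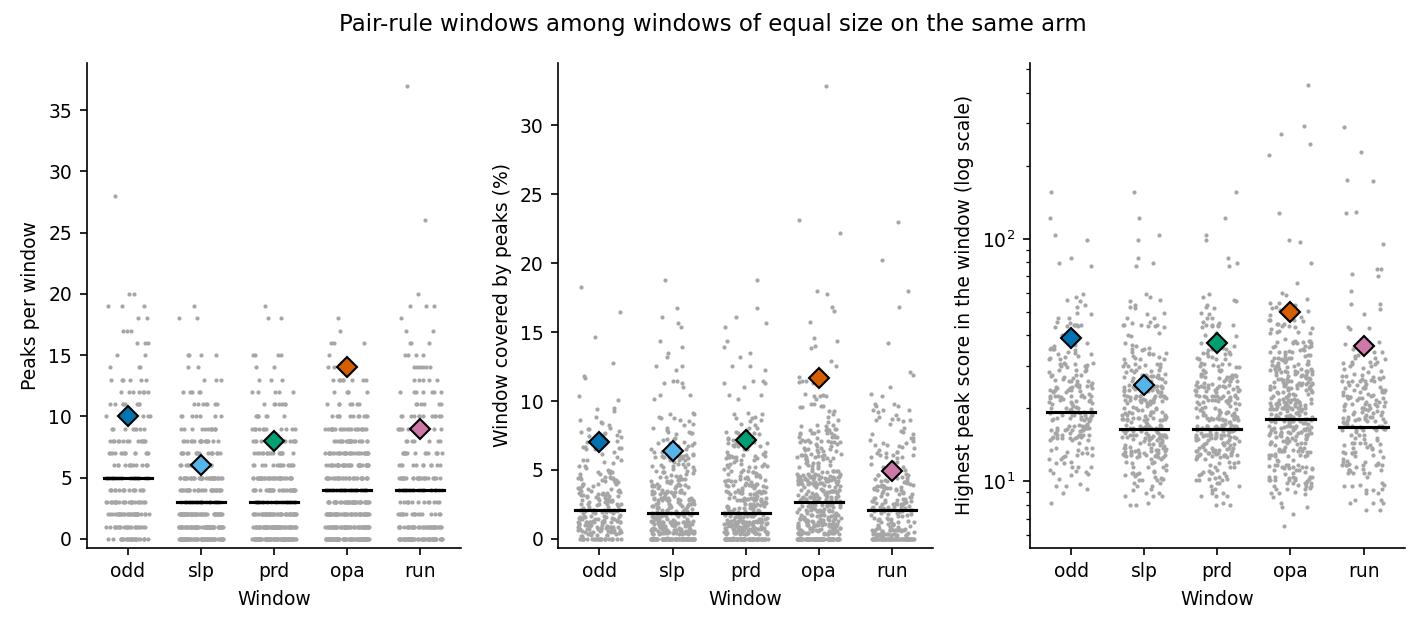
Peaks per window, percent of the window covered and highest score (log scale, windows without a peak left out of that panel) for each pair-rule window (diamonds) and for the windows of equal size on the same arm (grey points, with black lines at the medians over all windows). All diamonds lie above the lines, and those of opa are farthest up in the cloud, with 9 of 460 windows at or above it in number of peaks.

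The windows with the most peaks or the highest score on these arms were elsewhere. On 2L the fullest 90 kb window, 6120001 to 6210000, had 28 peaks and the fullest 60 kb window, 6180001 to 6240000, had 19, while the highest score, 156.58, was in the windows that start at 18900001. On 3R the fullest, 25080001 to 25140000, had 18 peaks, 4 more than opa, and 25500001 to 25560000 had the highest score of 430.92. On the X the fullest, 19520001 to 19600000, had 37 peaks, and 2480001 to 2560000 had the highest score of 288.75. Next to windows with a like number of peaks (the same number, 1 more or 1 fewer), the highest score of run was exceeded in 1 of 28 windows, whose median was 22.7, and that of opa in 1 of 12, with a median of 35.5. It was exceeded in 7 of 46 windows for prd, 9 of 26 for odd and 21 of 70 for slp. Unlike the shares above, these counts leave out ties, of which run, prd and slp had 1 each. By covered share the picture was different. Among windows with a like number of peaks, 1 of 26 exceeded odd (7.06%, against a median of 4.87%) but 16 of 28 exceeded run (4.89%, against 5.53%). The cover of opa, 11.68%, was near the median of its like windows, 11.35%, and 5 of 12 exceeded it. For prd 10 of 46 had a higher cover, and for slp 9 of 70.

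Peak numbers directly beside the windows ranged from 0 to 9. The windows of equal size to the left and right of run held 1 and 0 peaks, those of odd 7 and 1, those of slp 4 and 5, those of prd 8 and 2, and those of opa 9 and 4. The pair-rule window had more peaks than either neighbour, except at prd, where the left neighbour had as many. That neighbour also held a stronger peak, at 12003071 to 12004291, which scored 78.68 and ranked 7 of 1450 on 2L. The last peak before the prd window, at 12011526 to 12012588, scored 39.54 and lay 65.4 kb to the left of the first prd peak. At opa, peaks continued to the left of the window, with scores of 38.08 at 646136 to 647126 and 28.78 at 648909 to 649555, the latter with its midpoint 0.769 kb outside the edge. The first peak to the right of the opa window scored 11.72. On the other edges, the nearest peaks outside scored 11.08 to 18.85 at odd (12.86 and 11.08), slp (15.61 and 13.17) and run (18.85 and 11.98). The peaks next to them on the inside scored 14.11 and 8.10 at odd, 15.49 and 15.09 at slp and 12.37 and 11.40 at run.

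**Figure D3:**
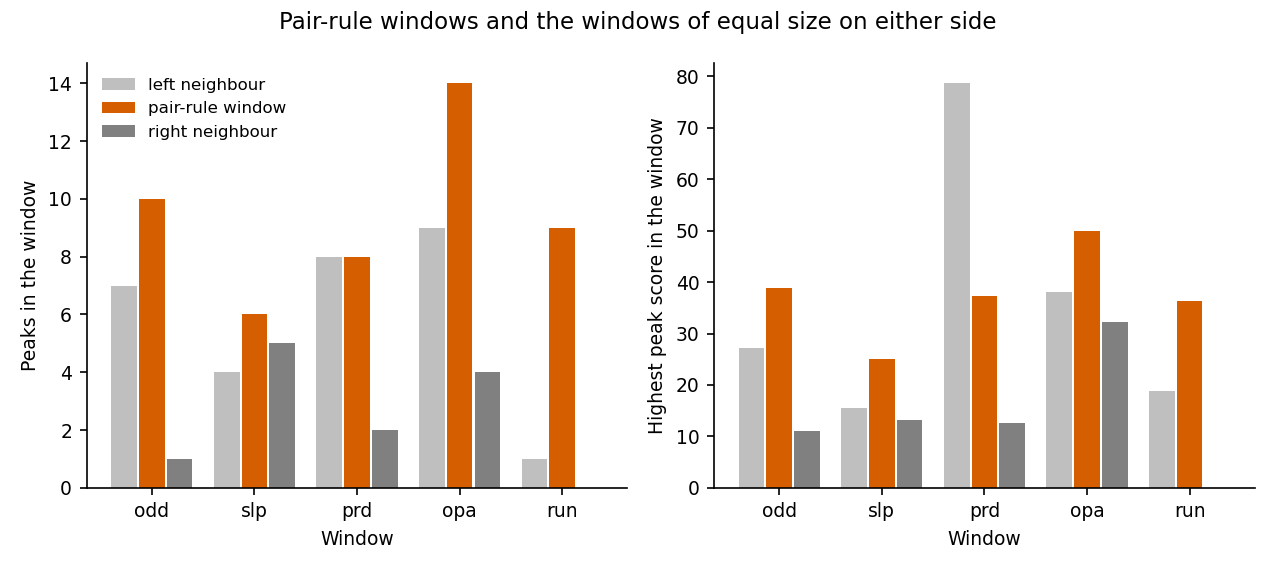
Number of peaks (left) and highest score (right) in each pair-rule window and in the windows of equal size on either side of it. The run window has 9 peaks between neighbours with 1 and 0 (no bar), and the left neighbour of prd has the highest score shown, 78.68.

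Width and score varied together among the 47 peaks, but not in every case. Spearman's rho was 0.71 over the 47 peaks and 0.66 over the 8099 peaks of the arms, given as a description, since these peaks come from the same libraries and a caller can set both values from the same reads. The median width was 834 bp for the 15 peaks at or above the upper quartile of score and 313 bp for the other 32. Of the 47 peaks, 6 (12.8%) were 1 kb wide or more, beside a background of 7.77% on the arms. They were 2 each at odd and opa and 1 each at slp and prd. All of these but the 1058 bp peak of slp were at or above the upper quartile of score. The whole list, which includes peaks outside the arms, had a higher median score (13.2) than the arms (12.7). Its peaks within 10% of the same width served as a scale. On it, the opa peak of score 45.13 exceeded 94.1% of 236 such peaks, whose median was 21.8, and the narrow opa peak of score 20.04 exceeded 95.4% of 1381. The strongest peaks of prd, odd and run exceeded 93.2%, 92.4% and 91.9%, and that of slp 83.9%. The strongest opa peak, at 2051 bp, exceeded 82.5% of only 57 peaks, whose median was 31.1, the lowest share among the strongest peaks of the 5 windows. The 1879 bp prd peak was low for its width on this scale, with 7.5% of 80 such peaks below its 19.14 and a median of 27.4 among them. So was the 1058 bp slp peak, with 17.0% of 288 below it.

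**Figure D4:**
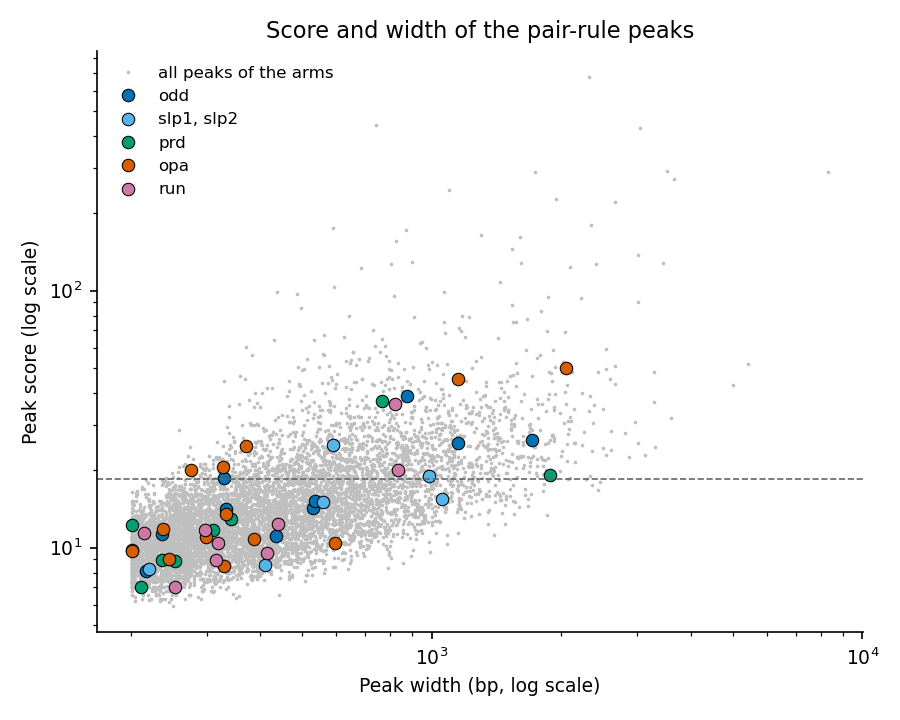
Score (y axis, log scale) against width in bp (x axis, log scale) for the pair-rule peaks (coloured by window) and for all peaks on the chromosome arms (grey); the dashed line is the upper quartile of score, 18.47. The strongest peaks of odd, prd and run and the opa peak of score 45.13 lie high in the cloud at their widths, and the wide prd peak of score 19.14 lies near its lower border.

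A neighbouring peak within 10 kb was more frequent than on the arms, while one within 1 kb was about as frequent as there. Of the 47, 46 had another midpoint within 10 kb (97.9%, beside 86.5% on the arms) and 12 had one within 1 kb (25.5%, beside 28.2%). The exception was the isolated peak on the right of the odd window. A window with several peaks holds peaks that have neighbours, and no test of these shares was made. When peaks within 500 bp were joined, 38 regions remained, and 8 were 1 kb or wider. Of the 38, 8 combined 2 or 3 peaks, including the prd peak just outside its window. The same counts were not made for joined peaks over the arms, so these have no background beside them.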

How the data were processed

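The only file is a peak list for the whole series, with FlyBase release 5 coordinates per the file headers and MACS named as the source of each peak. The submitters' processing notes name MACS2, BWA and CASAVA (1.7.0.2, 1.7.0.3) and the build BDGP5, without role or order. Not given in the sources used here are the threshold, the control, the handling of repeats and any pooling of replicates. A stretch without a peak therefore only lacks a call by the authors. The score is the one the authors deposited, on an unnamed scale, and the start and end are other values they deposited. Read depth is unknown, and the list has no value per library. Embryos were fixed in 1.8% formaldehyde for 15 min, per the labels' protocols.

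Peaks were assigned to windows by midpoint. The members, windows and lists were chosen with earlier results of these data known. Peaks named are the strongest and widest of each window and those at or above the upper quartile of score (or the 3 strongest), plus others singled out after their values were seen (edge peaks, flanking peaks and close groups). Comparison windows ran to the last peak of the arm. Shares of windows with like peak numbers, flanks, second highest scores, peaks of like width, neighbour distances and peak-free stretches were later additions, chosen with the values known. So were the shares of windows that reached all 3 measures together or held as many peaks above the upper quartile. Release 6 annotation was used for gene order only. The counting of windows was tested on simulated data. Alternatives were shifted or sliding windows, other peak sets, merging, overlap in place of midpoint and other edges. Sequences were not used here. Scripts ran in Python 3.11.15 with pandas 2.3.3, numpy 2.4.6 and scipy 1.17.1, and figures were drawn with matplotlib 3.10.9.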

Additional observations from a re-analysis of the deposited data

How the results depend on the processing

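No paired analysis was possible because the list holds no value per library, and no replicate could be left out for the same reason. Of 100 alternative values, 85 stayed within the interval or the 1.5-fold range set for the main value and 15 moved beyond it. The cause was not tested. Part of the 85 could not move, so their number is not a measure of stability. The interval of the median spanned all scores of the window at slp (8.26 to 25.05) and prd (7 to 37.28). Intervals of the share at or above the upper quartile were also wide, as at slp (4.3 to 77.7%). Below, a share is the percent of equal-size windows of the arm with at least the value of the pair-rule window. With only peaks at or above the median score of the list, the share by number of peaks moved in all 5 windows. It was 9.2% for odd, 17.0% for slp, 42.6% for prd, 8.48% for opa and 43.3% for run. The peaks left were 2 at prd, 6 at opa and 2 at run. Dropping weaker peaks cannot lower a median score, and it rose in all 5 windows. The median became 28.2 at run and prd, 22.7 at opa, 18.6 at odd and 17.2 at slp. Only at run did it leave its interval, 8.97 to 20.04, which at slp and prd it could not do. With peaks within 500 bp joined, the share by number was 26.8% for odd. With peaks counted by overlap, it was 11.4% for prd, which gained the peak on its edge. Leaving out windows without a peak gave 30.3% for slp and 28.2% for run by number, 27.3% for slp by highest score and 28.2% for run by cover. Shifted and sliding windows moved no value past its range. For other edges, 10 kb in or out on each side, only peak density was recomputed, and it stayed within the 1.5-fold range. The narrowed windows held 9 peaks at odd, 5 at slp, 4 at prd, 8 at opa and 6 at run. The shares by number, cover and highest score were not recomputed for other edges. Unknown depth limits every statement on weak peaks and on stretches without one.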
